A study of Mus musculus with 59 samples.

Results

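The data described here compare early T cell precursors that made TCF-1 lacking its L1 segment (L1d) with precursors that made TCF-1 lacking its L7 segment (L7d), in the DN2 sort of primary mouse cultures. All 10 deposited libraries of these 2 groups were members, 4 of L1d and 6 of L7d, of 59 libraries given for the series. The labels give the cells as Tcf7eGFP fl/fl Cre+ bone marrow progenitors of the LSK type and title them TCF1KO, so all groups share the Cre-deleted Tcf7 background and differ in the TCF-1 construct they were given. The promoter that drives the Cre, the animals' age and the boundaries of the L1 and L7 segments are not given in the sources used here. Cells grew for 7 days on OP9-DLL1, a mouse bone marrow stromal line that presents a Notch ligand, and were then sorted. The gate of DN2 took CD45+ cells with high CD25 and low levels of both c-Kit and CD44, although another label field describes the DN2 cells as CD44+. The groups compared were L1d and L7d in DN2, the same 2 constructs in the DN1 sort, and P45 in DN2 (6 libraries). The DN1 sort took CD45+ cells with low CD25 and high levels of both c-Kit and CD44. P45 bears the name of the long isoform of TCF-1. The spread behind each p-value came from all 8 primary groups. These also included P45, the empty vector (EV) and HMG-deleted TCF-1 (HMGd) in DN1, which are not compared here. Libraries of a cell line with the same 2 deletions were fitted separately. Of the 6 DN1 libraries of L1d 5 were used, since the deposited file of the other was incomplete. Nothing in the labels says how many animals gave the progenitors or whether replicates were separate cultures, so the p-values measure the spread between the deposited replicates, which may be partly technical.

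TCF-1, encoded by Tcf7, is a DNA-binding protein with an HMG box that switches on genes of the T lineage in progenitors that receive a Notch signal. In the thymus, cells pass through DN1, in which several blood lineages are still open, to DN2, in which CD25 (encoded by Il2ra) appears, and then commit to the T lineage as Bcl11b is expressed. Progenitors that leave this path can become myeloid cells, dendritic cells or innate lymphoid cells. RNA was sequenced from the sorted cells in bulk, so fewer cells of a type and less RNA per cell cannot be told apart in any value below.

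Each of the 10 libraries held 5.33 to 8.77 M reads counted in genes, and libraries with the same B number were summed into a replicate, which gave 2 replicates per group of 14.34 and 14.59 M reads for L1d and 16.81 and 22.67 M reads for L7d. Levels are given as CPM, counts scaled to a common library size, after TMM scaling, and fold changes are L1d over L7d. A gene was called when its adjusted p in edgeR's quasi-likelihood test was under 0.05. DN2 replicates of L1d stood apart from each other in genes of the stroma: collagen genes of the OP9 list summed to 49.9 CPM in replicate 1 and 354 CPM in replicate 2, against 37.5 and 61.6 CPM in L7d. Counts of calls without that replicate, and without replicate 1 of L7d, stand beside most of the gene lists they change. The stage marker, progenitor, gamma-delta T cell, mature macrophage, low oxygen, interferon and stroma lists also lost calls in such fits, and their counts are not given.

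With L1d, 710 genes were higher and 163 were lower than with L7d in DN2 (4.73% and 1.09% of the 15010 genes tested, and 5.82% together). Of these calls, 366 were by at least 2-fold, 296 of them higher and 70 lower. The spread taken from the other groups mattered for the count. With DN2 replicates alone in the fit 153 genes were called (128 higher and 25 lower). With the 4 compared replicates alone 36 were called (36 higher and 0 lower). The count depended on single replicates: 343 genes were called without replicate 2 of L1d and 186 without replicate 1 of L7d. In all 4 fits that left out a replicate of either group, 148 higher genes and 16 lower genes remained called. The lower genes included surface, adaptor and factor genes of the T lineage, and the higher genes included 26 of 36 myeloid markers tested. Replicates that did not overlap were common in the background, with both L1d replicates above both L7d replicates in 21.7% of genes and below them in 20.2%. The shares called over all genes, 4.73% higher and 1.09% lower, are the background for the list counts below.

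The sort was checked against its markers. Il2ra, the alpha chain of the interleukin-2 receptor and the CD25 of the gate, had 448 and 373 CPM with L1d in DN2, against 1180 and 687 CPM with L7d. It fell in L1d by 1.18 on the log2 scale (SE 0.2, adjusted p = 0.00347) and held 0.95 to 2.65 CPM in DN1 cells of both constructs. Both DN2 sorts held Il2ra RNA far above DN1, and within the same gate L1d held less of it than L7d, with no overlap. Kit, the stem cell factor receptor, had 287 and 304 CPM with L1d and 308 and 280 CPM with L7d, and was not called (adjusted p = 0.982). Cd44, an adhesion receptor that declines as cells leave DN2, had 200 and 208 CPM with L1d and 161 and 162 CPM with L7d, a rise of 0.34 on the log2 scale (SE 0.06, adjusted p = 0.00473). Ptprc, which encodes CD45, had 441 and 422 CPM with L1d and 522 and 459 CPM with L7d, and was not called (adjusted p = 0.198). Of 10 stage markers, Cd44 rose and Il2ra and Thy1 fell (4.73% of all genes rose and 1.09% fell). The call of Cd44 was lost without replicate 1 of L7d, and with DN2 replicates alone in the fit 0 of the 10 were called.

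Tcf7 itself had 881 and 810 CPM with L1d, 1110 and 1040 CPM with L7d, and 723 and 715 CPM with P45. The value with L1d was lower than with L7d by a log2 change of -0.35 (SE 0.09, adjusted p = 0.0431), a call that was lost without replicate 2 of L1d (adjusted p = 0.274) and in 3 of the 4 fits that left out a replicate. These reads come from the construct and from any remaining endogenous transcript, and the constructs lack different stretches of the gene, so the counts are no measure of protein level. Among 13 tested genes of the TCF and LEF family and Wnt response, Tcf7l2, another member of the family, rose to 21.7 and 33.7 CPM with L1d, against 14.9 and 15.1 CPM with L7d (log2 fold change 0.88, SE 0.18, adjusted p = 0.00981). Tle3, a Groucho corepressor that binds TCF proteins, fell by 0.2 on the log2 scale (SE 0.05, adjusted p = 0.041). Axin2, the common Wnt target, had 6.33 and 5.84 CPM with L1d and 8.44 and 7.98 CPM with L7d and was not called (adjusted p = 0.25). Of the 13 genes 1 rose and 2 fell, beside 4.73% and 1.09% of all genes. Without replicate 2 of L1d, and likewise without replicate 1 of L7d, 0 of these 13 genes were called.

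Thy1 (chromosome 9, 44043384 to 44048579, GRCm38), which encodes the T lineage surface glycoprotein CD90, showed the largest fall among the 16 lower genes that stayed called in all 4 fits that left out a replicate, apart from the uncharacterised D630039A03Rik (0 and 0.0615 CPM with L1d, 2.19 and 1.2 CPM with L7d). It had 2.09 and 0.861 CPM with L1d, 25.6 and 7.33 CPM with L7d, and 30.1 and 18.7 CPM with P45. L1d was lowest and did not overlap L7d, and within L7d replicate 1 was far above replicate 2. An antibody to Thy1.2 was in the staining panel, but Thy1 is not part of the gate the labels give. Thy1 was 11.1-fold lower with L1d (log2 fold change -3.47, SE 0.55, adjusted p = 0.00152). Bcl11b (chromosome 12, 107910403 to 108003602), the zinc finger factor of T lineage commitment, had 1.83 and 0.185 CPM with L1d, 13.8 and 2.44 CPM with L7d, and 22 and 15.8 CPM with P45. It fell by 3 on the log2 scale (SE 0.85, adjusted p = 0.0463), a call that did not hold without replicate 2 of L1d (adjusted p = 0.275). The 2 groups did not overlap, but the lower L7d replicate lay close to the higher L1d replicate.

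**Figure D1:**
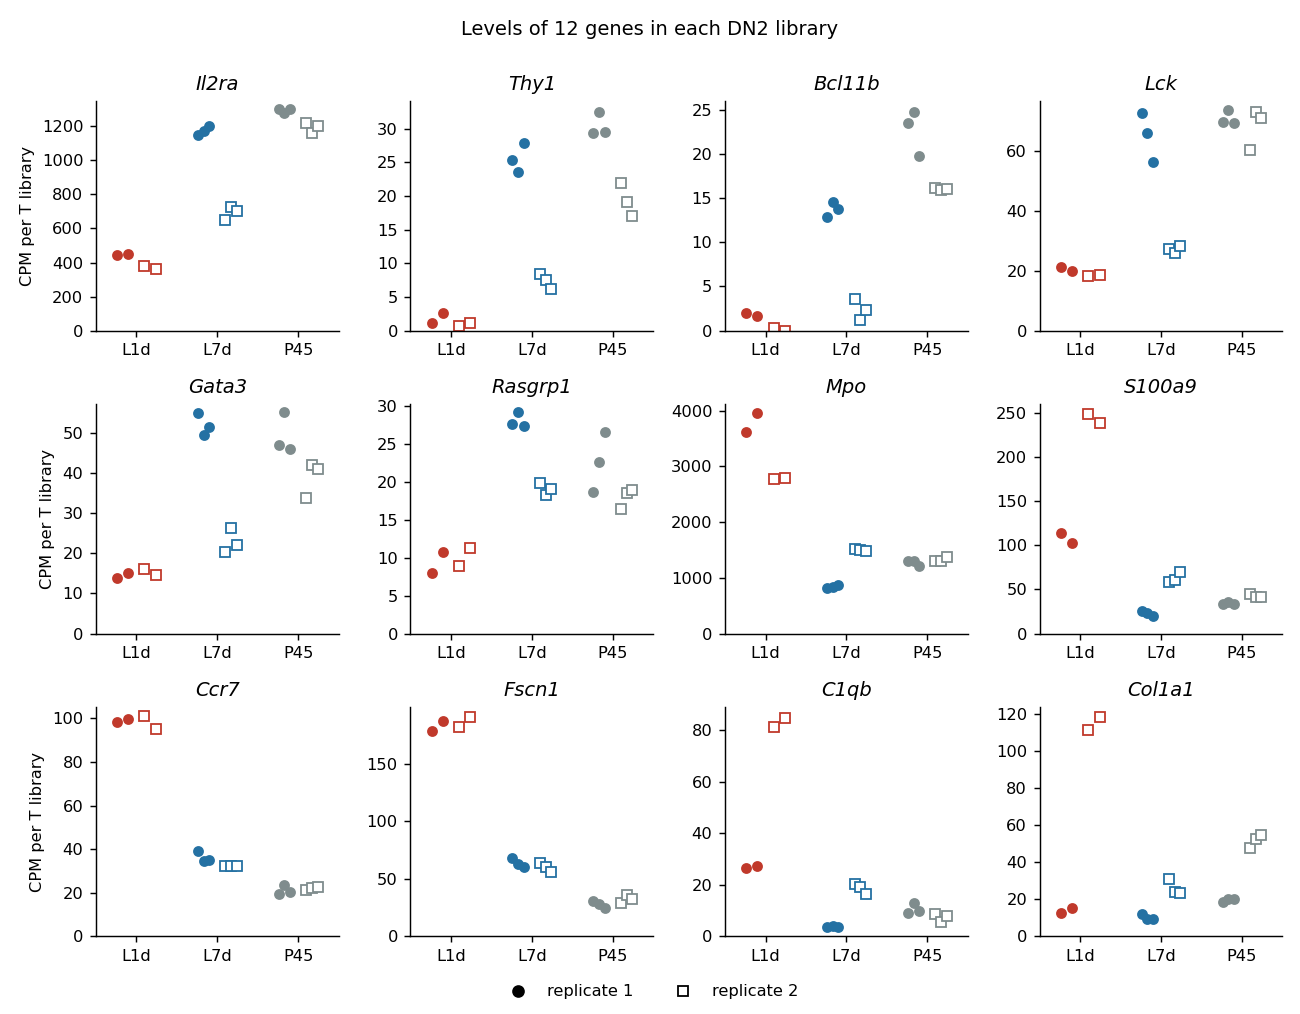
Each panel shows the level of 1 gene in CPM on a linear axis from 0, with a point for every deposited DN2 library of L1d, L7d and P45; filled circles are B replicate 1 and open squares B replicate 2. Libraries of the same replicate lie close together, Il2ra, Thy1, Bcl11b, Lck, Gata3 and Rasgrp1 are lowest with L1d (in Bcl11b libraries of L1d replicate 1 and L7d replicate 2 overlap), Ccr7 and Fscn1 are highest with L1d in both replicates, and Col1a1 is high in replicate 2 of L1d (114 CPM).

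Of 21 tested T lineage factors, 5 fell and 2 rose, with a median log2 fold change of -0.14, against 0 over all genes tested. Of all genes 1.09% fell and 4.73% rose. With DN2 replicates alone in the fit 0 fell and 1 rose, and with the 4 compared replicates alone 0 were called. Gata3, a zinc finger factor needed for the earliest T cell steps, had 14.5 and 15.5 CPM with L1d and 52 and 22.6 CPM with L7d (log2 fold change -1.3, SE 0.3, adjusted p = 0.018). Tox, an HMG factor of T cell and innate lymphoid development, had 9.52 and 8.12 CPM with L1d and 28.5 and 13.6 CPM with L7d (log2 fold change -1.25, SE 0.29, adjusted p = 0.0218). Both were lower in each L1d replicate than in each L7d replicate, and both lost the call without replicate 2 of L1d (adjusted p = 0.0913 for Gata3 and 0.155 for Tox). Tcf12, the E protein HEB, fell by 0.36 on the log2 scale (SE 0.09, adjusted p = 0.0245), and the fifth factor that fell was Tcf7. The 2 factors that rose are known for other lineages. Gfi1, a repressor used in granulocytes as well as in T cells, had 11.3 and 10.9 CPM with L1d and 4.39 and 5.74 CPM with L7d (log2 fold change 1.12, SE 0.18, adjusted p = 0.00235). Spib, an ETS factor of plasmacytoid dendritic and B cells that early thymic cells express for a short time, had 7.3 and 6.58 CPM with L1d and 2.87 and 2.44 CPM with L7d (log2 fold change 1.39, SE 0.38, adjusted p = 0.0431). The list gave 1 higher and 1 lower call without replicate 2 of L1d, and without replicate 1 of L7d 1 higher and 0 lower. Factors that were not called included Runx1 (157 and 161 CPM with L1d, 177 and 173 CPM with L7d) and Myb (600 and 574 CPM with L1d, 602 and 564 CPM with L7d).

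Genes of the T cell receptor complex and its signalling lay below 0 in all 22 members tested, with a median log2 fold change of -1.38 and 5 called lower. With genes that had no read in L1d set at their bound, and 1 gene left out whose groups were both at the floor, the median over 21 genes was -1.26. The list held 25 genes, and the 22 are those that passed the filter on low counts. With DN2 replicates alone in the fit 1 of 21 tested was called lower, and with the 4 compared replicates alone 0 of 18 were. Lck, the kinase that starts receptor signalling, had 20.3 and 18.5 CPM with L1d, 65.1 and 27 CPM with L7d, and 70 and 68.3 CPM with P45 (log2 fold change -1.23, SE 0.3, adjusted p = 0.0231). Cd5, an inhibitory receptor on T cells, had 1.63 and 1.97 CPM with L1d and 7.15 and 3.22 CPM with L7d (log2 fold change -1.5, SE 0.36, adjusted p = 0.0222). Cd247, the zeta chain of the receptor, had 0.391 and 0.246 CPM with L1d and 3.71 and 1.16 CPM with L7d (log2 fold change -2.89, SE 0.74, adjusted p = 0.021). In each of these 3 genes both L1d replicates were below both L7d replicates, and L7d replicate 2 lay between L1d and L7d replicate 1. Without replicate 1 of L7d the calls in this list numbered 1 of 22, and without replicate 2 of L1d they numbered 2.

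The CD3 genes were at the edge of detection. Cd3g, a chain of the receptor complex, had no read in the 4 L1d libraries and 52 reads in the 6 L7d libraries. With a floor of 3 counts over the L1d group that is at least 12.6-fold lower, but the gene was not called (adjusted p = 0.127), and L7d itself held 2.76 and 0.116 CPM. Cd2, an adhesion receptor of T cells, had no read with L1d and 34 reads with L7d, at least 8.22-fold lower and not called (adjusted p = 0.0626). Rag1, the recombinase that rearranges receptor genes, had 0.13 and 0 CPM with L1d and 1.63 and 0.504 CPM with L7d (adjusted p = 0.0553). These genes were near 0 with L1d and in replicate 2 of L7d.

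Transcripts of the constant regions of the gamma and delta receptor loci lay below 0 with L1d in all 5 genes tested, and 4 fell; the list was chosen after its values were seen. Trdc, the delta constant region, had 2.48 and 0.431 CPM with L1d, 16.5 and 7.05 CPM with L7d, and 15.5 and 12.7 CPM with P45 (log2 fold change -3.02, SE 0.61, adjusted p = 0.0141). Tcrg-C1, a gamma constant region, had 21.8 and 9.23 CPM with L1d and 82.6 and 40.5 CPM with L7d (log2 fold change -1.98, SE 0.34, adjusted p = 0.00438). Tcrg-C2 and Tcrg-C4 fell as well (log2 fold changes -2.61 and -1.98, adjusted p = 0.021 and 0.0468), and Tcrg-C3 had 1.11 and 0.246 CPM with L1d and 3.21 and 0.698 CPM with L7d and was not called. The gamma constant regions are near copies of each other, so the split of reads among them is uncertain. Summed over the 5 genes the level was 36.8 and 12.3 CPM with L1d, 153 and 65.5 CPM with L7d and 176 and 123 CPM with P45. Only 1 of the 5 was called without replicate 2 of L1d, and without replicate 1 of L7d or with DN2 replicates alone 0 were. Of 6 tested genes on a separate gamma-delta T cell list Trdc fell, and Maf, a factor shared by macrophages and gamma-delta cells, rose to 42.7 and 94.1 CPM with L1d, against 18.9 and 35.4 CPM with L7d (adjusted p = 0.0358), a call lost without replicate 2 of L1d (adjusted p = 0.455).

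The promoters of 3 of these lower genes are shown because TCF-1 binds DNA at a short motif of the HMG box family. RefSeq windows on GRCm38.p6, from 250 bases before to 50 after a start site, were searched on both strands for the motif CTTTGAA, its variant CTTTGAT, the variant CTTTGTA and the variant CTTTGTT, and matches are in capitals. The Bcl11b window is chr12:108003365-108003664 on the minus strand with its match at -89 from the start site, the Lck window is chr4:129558323-129558622 on the minus strand with its match at -94, and the Il2ra window is chr2:11642542-11642841 on the plus strand with no match.
Bcl11b: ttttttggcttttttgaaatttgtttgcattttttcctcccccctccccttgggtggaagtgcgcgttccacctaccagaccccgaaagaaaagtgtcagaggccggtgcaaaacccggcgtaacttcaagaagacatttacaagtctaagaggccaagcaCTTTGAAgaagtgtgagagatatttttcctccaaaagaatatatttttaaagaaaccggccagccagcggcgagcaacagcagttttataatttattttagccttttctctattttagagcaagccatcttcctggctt
Lck: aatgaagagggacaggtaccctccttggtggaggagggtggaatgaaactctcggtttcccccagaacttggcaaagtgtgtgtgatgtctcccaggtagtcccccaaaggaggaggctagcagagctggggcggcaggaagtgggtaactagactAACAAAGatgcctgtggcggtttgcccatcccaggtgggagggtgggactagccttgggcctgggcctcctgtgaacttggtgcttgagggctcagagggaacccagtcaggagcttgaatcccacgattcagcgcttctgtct
Il2ra: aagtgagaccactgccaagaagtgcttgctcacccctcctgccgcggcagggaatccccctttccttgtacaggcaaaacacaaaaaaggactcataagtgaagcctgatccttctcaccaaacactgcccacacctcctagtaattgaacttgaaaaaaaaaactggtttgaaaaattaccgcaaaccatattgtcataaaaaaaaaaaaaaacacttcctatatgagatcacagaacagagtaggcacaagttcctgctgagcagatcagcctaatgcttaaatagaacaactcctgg
A match was found in 16.9% of all 32851 windows. Among genes with a window it was found in 15.7% of the 115 lower genes, in 16% of the 551 higher genes and in 14.1% of all 10256 genes tested. The shares of lower and higher genes lay close to each other and to that of all genes tested. A match is a run of letters and not a measured binding site, and a second Lck window at a start site farther upstream had none. The 3 genes printed are examples and do not represent the lower genes. Windows of Gata3, Cd5, Cd247 and Rasgrp1 held no match, while Tcf12 and Mast2 each had a window with a match.

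Of 11 tested Notch response genes, 2 fell and none rose (1.09% of all genes fell and 4.73% rose). Dtx1, an E3 ligase induced by Notch, had 16 and 17.2 CPM with L1d and 42.3 and 23.5 CPM with L7d (log2 fold change -0.98, SE 0.24, adjusted p = 0.0243), and the other was Il2ra. Other targets did not pass the test: Hes1, a repressor induced by Notch, had 7.11 and 10.4 CPM with L1d and 12.7 and 8.6 CPM with L7d, and Nrarp, a feedback inhibitor, had 9.39 and 13.9 CPM with L1d and 13.8 and 10.2 CPM with L7d. In both the groups overlapped. Notch1, the receptor, had 104 and 112 CPM with L1d and 162 and 111 CPM with L7d (adjusted p = 0.146). Without replicate 2 of L1d, and without replicate 1 of L7d, 1 of the 11 genes was called.

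Lymphoid genes beyond the receptor list were also among the calls. Over all genes tested 4.73% rose and 1.09% fell, and 1 riser in 16 or 18 genes is near the share that rose. Of 18 innate lymphoid genes tested 5 fell and 1 rose, and besides Gata3 and Tox the falls were Pdcd1, Itgae and Ahr. Itgae, the integrin CD103, had 16.9 and 8.37 CPM with L1d and 37.9 and 29 CPM with L7d (log2 fold change -1.4, SE 0.24, adjusted p = 0.00375). Pdcd1, the inhibitory receptor PD-1 that innate lymphoid precursors carry, had 9.65 and 6.95 CPM with L1d and 20.6 and 15.7 CPM with L7d (log2 fold change -1.13, SE 0.25, adjusted p = 0.017). Nfil3, a factor of innate lymphoid and myeloid cells, was the gene that rose (log2 fold change 0.5, SE 0.12, adjusted p = 0.0213). Of 16 cytotoxic genes, Gzma, a granule protease, fell to 98.8 and 43.7 CPM with L1d, against 321 and 136 CPM with L7d (adjusted p = 0.0108), Il2rb, a chain of the interleukin-2 and interleukin-15 receptors, fell by 3 on the log2 scale (adjusted p = 0.0463), and the chemokine Ccl5 rose. Among 24 cytokine receptor and signalling genes 4 fell and 3 rose. Bcl2, a survival protein, had 45.7 and 44.5 CPM with L1d and 93.7 and 70.9 CPM with L7d (log2 fold change -0.87, SE 0.16, adjusted p = 0.00496), and Socs2, Il2ra and Il2rb were the other falls, while Il21r, Ifngr1 and Csf2rb rose by 0.36 to 0.55 on the log2 scale. Among 18 adhesion and homing genes, Itgae and the integrins Itga4 (log2 fold change -0.42, adjusted p = 0.0351) and Itgb7 (-0.51, adjusted p = 0.0226) fell, while Ccr7 and Cd44 rose. Without replicate 2 of L1d the innate lymphoid list had 2 genes called lower and 0 higher, the cytotoxic list 0 and 1, the cytokine list 2 and 0, and the adhesion list 1 and 3. Without replicate 1 of L7d the lower and higher calls in these lists were 0 and 0, 0 and 1, 1 and 0, and 0 and 1.

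Of 14 B lineage genes 13 lay below 0 and 1 was called. Ighm, the mu heavy chain, had 3.65 and 2.28 CPM with L1d, 10.7 and 9.46 CPM with L7d and 7.04 and 8.22 CPM with P45 (log2 fold change -1.76, SE 0.22, adjusted p = 0.000263). Its replicates lay close together in each group, so this fall did not rest on a single replicate. Of 13 later T cell genes, Ccr7 was the gene called, and 10 lay below 0.

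**Figure D2:**
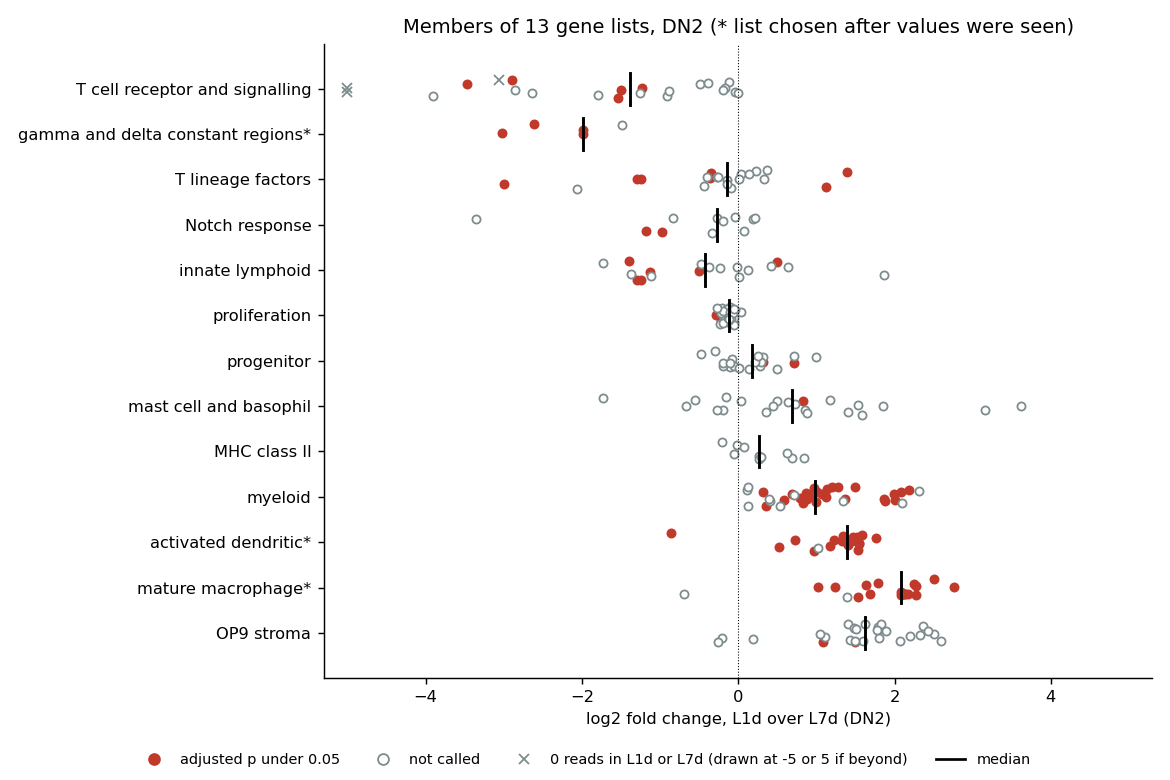
Each point is a tested member of 1 of 13 gene lists, placed by its log2 fold change of L1d over L7d in DN2; red points have an adjusted p under 0.05, crosses had no read in a group, bars are list medians, and lists with an asterisk were chosen after their values were seen. Receptor genes lie below 0 (median -1.38), myeloid genes above 0 (median 0.98), and stroma genes above 0 mostly without a call (median 1.62).

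All 36 tested myeloid genes lay above 0 with L1d, with a median log2 fold change of 0.98, and 26 rose while none fell (4.73% of all genes rose). With DN2 replicates alone in the fit 4 of 34 tested were called, and with the 4 compared replicates alone 0 were. The median was 0.93 in both of these fits. Mpo, the myeloperoxidase of granulocyte precursors, had 3810 and 2790 CPM with L1d, 846 and 1490 CPM with L7d, and 1260 and 1320 CPM with P45 (log2 fold change 1.49, SE 0.21, adjusted p = 0.00116). Elane, neutrophil elastase, had 174 and 156 CPM with L1d and 63.7 and 92.9 CPM with L7d (log2 fold change 1.07, SE 0.18, adjusted p = 0.00302). The groups did not overlap in either gene, and the second L7d replicate was the nearer to L1d. Cebpe, a factor of granule formation, had 14.5 and 10.8 CPM with L1d and 3.38 and 6.12 CPM with L7d (log2 fold change 1.36, SE 0.19, adjusted p = 0.000862). Csf3r, the receptor for granulocyte growth factor, had 36.9 and 50.7 CPM with L1d and 12.6 and 22.9 CPM with L7d (log2 fold change 1.28, SE 0.19, adjusted p = 0.00145). Itgam, which encodes the myeloid integrin CD11b, had 83.3 and 121 CPM with L1d and 46.9 and 61.8 CPM with L7d (log2 fold change 0.91, SE 0.15, adjusted p = 0.00235).

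Other myeloid genes that rose differed more between replicates. S100a9, a calcium-binding protein of neutrophils, had 107 and 244 CPM with L1d and 23.1 and 62.7 CPM with L7d (log2 fold change 2.01, SE 0.35, adjusted p = 0.00436). Lcn2, an iron-scavenging granule protein, had 42.2 and 91.2 CPM with L1d and 10 and 25.3 CPM with L7d (log2 fold change 1.88, SE 0.32, adjusted p = 0.00342). Ngp, a neutrophil granule protein, had 123 and 314 CPM with L1d and 19.6 and 75.1 CPM with L7d (log2 fold change 2.19, SE 0.44, adjusted p = 0.00986). In all 3 the second replicate of each construct was the higher, and the groups did not overlap. The precursor genes Mpo and Ms4a3 went the other way between the L1d replicates, with Ms4a3 at 98.3 and 60.8 CPM with L1d and 32.1 and 47.1 CPM with L7d.

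Among factors and receptors shared by progenitors and myeloid cells, Spi1, Cebpa, Csf1r and Lmo2 rose by 0.32 to 0.97 on the log2 scale. Spi1, which encodes PU.1, had 178 and 164 CPM with L1d and 129 and 145 CPM with L7d (log2 fold change 0.32, SE 0.07, adjusted p = 0.0111). Cebpa, a factor of the granulocyte and monocyte path, had 73.8 and 67.4 CPM with L1d and 25.2 and 49.4 CPM with L7d (log2 fold change 0.9, SE 0.21, adjusted p = 0.0192). Csf1r, the receptor of macrophage growth factor, had 170 and 288 CPM with L1d and 91.6 and 142 CPM with L7d (log2 fold change 0.97, SE 0.2, adjusted p = 0.0108). Lmo2, an adaptor of stem and progenitor cells, had 145 and 139 CPM with L1d and 72.4 and 99.6 CPM with L7d (log2 fold change 0.72, SE 0.11, adjusted p = 0.00173), and with Spi1 it was 1 of 2 risers among 20 progenitor genes. Summed over the myeloid list the level was 6620 and 6380 CPM with L1d, 2230 and 3510 CPM with L7d and 3090 and 3140 CPM with P45 in DN2. In DN1 cells the same sum was 36400 and 37700 CPM with L1d and 31400 and 29200 CPM with L7d. The falls of T lineage genes and this rise both set L1d apart from L7d, while the DN2 myeloid sums of P45 lay within the range of L7d. The receptor gene sums of P45, 976 and 901 CPM, also lay within that of L7d, 999 and 802 CPM. The T lineage factor sums of P45, 2610 and 2560 CPM, did not. They lay below those of L7d, 3150 and 2880 CPM, and near those of L1d, 2600 and 2670 CPM. The part of myeloid RNA in the falls was not tested. The count of myeloid calls was 15 without replicate 2 of L1d and 9 without replicate 1 of L7d, with medians of 0.73 and 0.7. Cebpa, Csf1r and Ngp were among those not called without replicate 2 of L1d (adjusted p = 0.054, 0.15 and 0.128).

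Several genes known from dendritic cells rose, although most of the dendritic list did not pass the test. Ccr7 (chromosome 11, 99144196 to 99155077), the receptor that guides dendritic and T cells to lymph nodes, had 98.9 and 98.7 CPM with L1d, 36.3 and 32 CPM with L7d, and 20.8 and 22.1 CPM with P45. It was 2.9-fold higher with L1d than with L7d (log2 fold change 1.53, SE 0.11, adjusted p = 5.56e-06). Ccl22, a chemokine made by dendritic cells, had 43.4 and 44.3 CPM with L1d, 14.9 and 18 CPM with L7d, and 6.13 and 7.59 CPM with P45 (log2 fold change 1.41, SE 0.16, adjusted p = 0.00019). Ccl5 had 49.9 and 47.8 CPM with L1d, 19.5 and 17.7 CPM with L7d, and 11 and 14.5 CPM with P45 (log2 fold change 1.39, SE 0.22, adjusted p = 0.00186). In these 3 genes the order was L1d, then L7d, then P45, and no groups overlapped. Zbtb46, a factor of classical dendritic cells, had 8.48 and 8.61 CPM with L1d and 3.77 and 2.44 CPM with L7d (log2 fold change 1.47, SE 0.36, adjusted p = 0.0271). With Ccl22 and Irf8, a factor of dendritic cells and monocytes (log2 fold change 0.35, adjusted p = 0.0165), it made 3 risers among 11 dendritic genes tested, of which 5 lay below 0 and whose median was 0.13. Of the 11, 2 were called without replicate 2 of L1d, Zbtb46 not among them (adjusted p = 0.119), and without replicate 1 of L7d 1 was.

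After these values were seen, 20 genes known from activated dendritic cells were listed, of which 19 were tested, 17 were higher and 1 was lower. Fscn1, the actin-bundling protein fascin of mature dendritic cells, had 184 and 186 CPM with L1d, 63.9 and 59.5 CPM with L7d, and 27 and 32.5 CPM with P45 (log2 fold change 1.58, SE 0.18, adjusted p = 0.000177). Cd83, a maturation marker, had 40.8 and 42.4 CPM with L1d, 13.6 and 14.9 CPM with L7d, and 6.61 and 7.84 CPM with P45 (log2 fold change 1.55, SE 0.18, adjusted p = 0.000207). The costimulatory ligand Cd86 had 19.4 and 29 CPM with L1d and 8.61 and 10.5 CPM with L7d, and Cd80 had 6.65 and 8.67 CPM with L1d and 2.7 and 2.91 CPM with L7d. Il12b, a subunit of interleukin-12, had 16.2 and 16.1 CPM with L1d and 5.46 and 4.15 CPM with L7d, and Relb, a subunit of nuclear factor kappa B, had 25 and 31.4 CPM with L1d and 13.8 and 15 CPM with L7d. Socs2, an inhibitor of cytokine signalling, was the member that was lower. The list summed to 937 and 987 CPM with L1d, 424 and 401 CPM with L7d and 298 and 298 CPM with P45. With DN2 replicates alone in the fit 17 of the 19 were called higher, and with the 4 compared replicates alone 11 were. Of the 19, 16 were called higher without replicate 2 of L1d, and without replicate 1 of L7d 13 were. Genes of MHC class II presentation did not pass the test: all 10 were tested and none was called, with Cd74, the invariant chain, at 158 and 174 CPM with L1d and 100 and 105 CPM with L7d (adjusted p = 0.0865). With DN2 replicates alone in the fit 2 of these 10 were called higher, and with the 4 compared replicates alone 1 was.

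Genes of mature macrophages were listed after their values were seen, and 16 of the 18 tested were higher with L1d. C1qb, a chain of complement C1q, had 26.9 and 82.8 CPM with L1d, 3.83 and 18.5 CPM with L7d, and 10.5 and 7.54 CPM with P45 (log2 fold change 2.25, SE 0.52, adjusted p = 0.0211). Slc40a1, the iron exporter ferroportin, had 32.4 and 113 CPM with L1d and 5.35 and 23.6 CPM with L7d (log2 fold change 2.27, SE 0.5, adjusted p = 0.0141). Replicate 2 was the higher in both constructs, and replicate 1 of L1d was close to replicate 2 of L7d. The list summed to 325 and 866 CPM with L1d, 98 and 240 CPM with L7d and 140 and 129 CPM with P45. The median log2 fold change of the list was 2.08, and it was 1.11 without replicate 2 of L1d and 1.49 without replicate 1 of L7d. Most of the calls in this list were lost in each of these fits. With DN2 replicates alone in the fit 1 of the 18 was called higher, and with the 4 compared replicates alone 0 of 17 were.

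**Figure D3:**
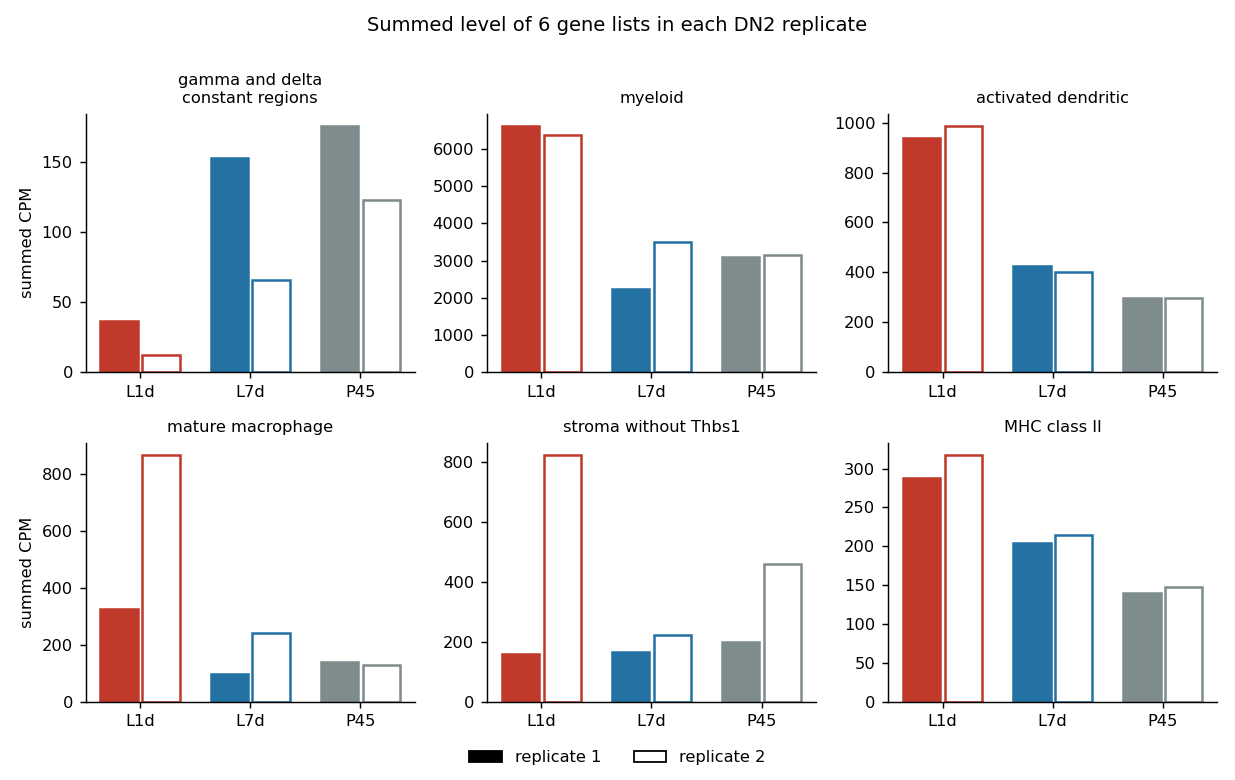
Bars give the summed level, in CPM from 0, of 6 gene lists in each DN2 replicate of L1d, L7d and P45; filled bars are replicate 1 and open bars replicate 2. The activated dendritic and myeloid sums are high in both L1d replicates, while the macrophage and stroma sums are high in replicate 2 of L1d (866 and 821 CPM).

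The OP9 stroma on which the cells grew left reads that differed between replicates. Of 27 stroma genes tested 25 lay above 0, with a median log2 fold change of 1.62, and 2 were called. Col1a1, a fibrillar collagen chain, had 14.4 and 114 CPM with L1d, 10.2 and 26.2 CPM with L7d, and 19.7 and 51.7 CPM with P45. Col3a1, another collagen chain, had 1.7 and 22.9 CPM with L1d and 1.52 and 3.1 CPM with L7d. Replicate 2 of L1d was above replicate 1 in 25 of the 27 genes, with a median ratio of 6.35, against a median ratio of 1.52 in L7d. Without that replicate the median log2 fold change of the list was -0.25. Thbs1, thrombospondin 1, was the exception: it had 1820 and 1740 CPM with L1d and 632 and 1050 CPM with L7d (log2 fold change 1.08, SE 0.16, adjusted p = 0.00152), and 5120 and 5380 CPM in DN1 with L1d. Leaving Thbs1 out, the list summed to 159 and 821 CPM with L1d, 166 and 224 CPM with L7d and 199 and 460 CPM with P45. Replicate 1 of L1d held about as much of these genes as replicate 1 of L7d. The part of stroma reads in the other calls was not tested beyond the values given without replicate 2 of L1d. With stroma, ribosomal RNA and mitochondrial genes removed from the counts, 894 genes were called in DN2. Of stroma genes only the listed ones were removed, so this count cannot show the part of stroma reads in the calls.

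Among genes that stayed called in all 4 fits that left out a replicate, Vcam1 rose most. This adhesion ligand of macrophages and stroma had 5.61 and 11.5 CPM with L1d and 0.619 and 1.74 CPM with L7d (log2 fold change 2.76, SE 0.51, adjusted p = 0.00326). Tjp1, the tight junction scaffold ZO-1, had 13.8 and 13.4 CPM with L1d, 2.7 and 2.67 CPM with L7d, and 4.17 and 5.14 CPM with P45 (log2 fold change 2.34, SE 0.25, adjusted p = 8.87e-05). Nrp2, a semaphorin coreceptor, had 37.5 and 43 CPM with L1d and 9.23 and 13 CPM with L7d (log2 fold change 1.84, SE 0.21, adjusted p = 0.00019). Mmp25, a membrane-anchored protease of leukocytes, had 34.8 and 35.4 CPM with L1d and 10.7 and 8.84 CPM with L7d (log2 fold change 1.85, SE 0.19, adjusted p = 8.87e-05). In the last 3 genes the L1d replicates lay close together and well above L7d. Ccl6, a myeloid chemokine, had 16.1 and 16.2 CPM with L1d and 3.26 and 5.47 CPM with L7d (log2 fold change 1.84, SE 0.22, adjusted p = 0.00019). Bcl2a1a, a survival protein with near copies whose reads may be split, Mgam, Sod3, Chst13, Tmcc3, Wfdc21, Far2 and Pxdc1, with S100a9 and Lcn2, made up the other large rises, by 1.83 to 2.56 on the log2 scale.

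Among genes that stayed called in those fits, the next largest falls after D630039A03Rik, Thy1 and Ighm were Adgrg5, Rasgrp1, Angptl2 and Il2ra. Adgrg5, an adhesion-type receptor, had 7.11 and 7.32 CPM with L1d and 21.5 and 14.8 CPM with L7d (log2 fold change -1.33, SE 0.19, adjusted p = 0.00116). Rasgrp1, which activates Ras downstream of antigen receptors, had 9.65 and 9.96 CPM with L1d, 28.2 and 19 CPM with L7d, and 23 and 18 CPM with P45 (log2 fold change -1.26, SE 0.2, adjusted p = 0.00194). Cnn3, an actin-binding calponin, had 23.2 and 20.1 CPM with L1d and 48.9 and 38.8 CPM with L7d (log2 fold change -1.02, SE 0.14, adjusted p = 0.000901). L1d was below L7d in every replicate of these genes. The falls of Trp53i11, Akr1c13, Kmo, Scd1, Lmna, Tnfsf10, Bace1 and Mast2 were smaller, with log2 fold changes between -1.11 and -0.45. Scd1 makes monounsaturated fatty acids, Lmna encodes nuclear lamins A and C, and Tnfsf10 encodes the death ligand TRAIL.

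In the lists of cell state few genes were called, to be read beside the 4.73% of all genes that rose and the 1.09% that fell. All 30 proliferation genes were tested, 29 lay below 0 with a median log2 fold change of -0.12, and 2 fell, Bub1b (a spindle checkpoint kinase, log2 fold change -0.22) and Tyms (thymidylate synthase, -0.29). Of 20 cholesterol synthesis genes 3 fell, among them Idi1 and Msmo1 (log2 fold changes -0.51 and -0.29). Of 30 genes of low oxygen and glycolysis, Mxi1, a Myc antagonist, rose to 44.7 and 40.5 CPM with L1d, against 22 and 22.4 CPM with L7d (log2 fold change 0.94, SE 0.09, adjusted p = 4.53e-05), and Vegfa, Bnip3 and Ero1l rose by 0.34 to 0.53. Slc7a11, a cystine transporter, was the riser among 19 amino acid stress genes (log2 fold change 1.06, SE 0.15, adjusted p = 0.00104). Stat2 and Gbp2 rose among 24 interferon genes, Perp among 14 p53 response genes, and Dusp1 and Zfp36 rose while Egr3 fell among 20 early stress genes. A call of 1 gene in 14 or 19 is near the share over all genes. Without replicate 2 of L1d, and without replicate 1 of L7d, the proliferation, cholesterol, p53 and early stress lists had 0 calls. Of 22 mast cell and basophil genes 16 lay above 0, with a median of 0.68, and 1 rose: Hdc, which makes histamine (log2 fold change 0.83, SE 0.13, adjusted p = 0.00221). The mast cell proteases Mcpt1 (221 and 200 CPM with L1d, 69.9 and 69.4 CPM with L7d, adjusted p = 0.185) and Mcpt2 (60.3 and 71.5 CPM with L1d, 17.6 and 18.9 CPM with L7d, adjusted p = 0.101) did not pass the test, although their groups did not overlap. With DN2 replicates alone in the fit 1 of 20 mast cell and basophil genes was called higher and 1 lower. With the 4 compared replicates alone 2 of 18 were called higher. None was called among 14 erythroid and megakaryocyte, 9 eosinophil and 8 mitochondrial genome genes.

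In DN1 cells the same constructs differed in few genes. With L1d, 7 genes were higher and 2 lower than with L7d (0.0466% and 0.0133% of genes tested, and 0.06% together), with 1105 genes at an unadjusted p under 0.05. The DN1 sort used 2 replicates per construct, and DN1 and DN2 libraries were separate, though nothing says whether they came from the same cultures. Among the 7 were Stfa1, Stfa2l1, Stfa3, Gm5483 and BC100530, which belong to the stefin A family of neutrophil protease inhibitors, share sequence and may split reads, and the others were Abca13 and Lyst. The 2 lower genes were Kmo, an enzyme of tryptophan breakdown, and Abcb1b, a drug transporter. Kmo fell in both gates, with 10.3 and 9.11 CPM with L1d and 20 and 19.4 CPM with L7d in DN1 (log2 fold change -1.03, adjusted p = 0.0128), and 15.7 and 18.1 CPM with L1d and 29.5 and 28.4 CPM with L7d in DN2 (-0.77, adjusted p = 0.0038). The DN1 calls were weak: in each of the 4 fits that left out a DN1 replicate of either construct 1 gene was called higher and 0 lower, so the DN1 call of Kmo was lost in all 4. Of the 710 genes higher in DN2, 549 lay above 0 in DN1 with a median of 0.16, and of the 163 lower genes 115 lay below 0 with a median of -0.13, while 46.7% of all genes lay above 0 in DN1. Over 12161 genes with enough reads the 2 sets of log2 fold changes had a Pearson correlation of 0.32, a description across genes that share libraries and are not independent replicates.

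The log2 fold change of L1d over L7d was higher in DN2 than in DN1 for 37 genes and lower in DN2 for 2 (0.247% and 0.0133% of genes tested, and 0.26% together). Ccr7 stood out: with L1d and L7d it had 98.9 and 98.7 CPM against 36.3 and 32 CPM in DN2, and 5.63 and 4.97 CPM against 7.41 and 9.14 CPM in DN1. The log2 fold change in DN2 minus that in DN1 was 2.2 (SE 0.19, adjusted p = 0.000146). The count of 39 genes was 15 without replicate 2 of L1d and 12 without replicate 1 of L7d in DN2, 7 to 19 without a DN1 replicate, and 224 and 326 without L1d replicate 1 and L7d replicate 2 in DN2. Of the 19 activated dendritic genes 11 were among the 37, and Tbc1d4, a Rab regulator (difference 1.4, SE 0.18, adjusted p = 0.00338), and Mreg, a melanosome and vesicle adaptor (difference 1.49, SE 0.21, adjusted p = 0.00927), were the next clearest of them. That list was chosen after its DN2 values were seen. The difference between gates contains those DN2 values, so the 11 are no independent result. Cd74 and H2-Eb1 of MHC class II differed between gates: both lay above L7d in DN2 and below it in DN1, with Cd74 at 47.1 and 64.5 CPM with L1d and 108 and 112 CPM with L7d in DN1 (difference 1.65, SE 0.32, adjusted p = 0.0488). None of the 36 myeloid genes differed between gates in this test, and none of the 22 receptor genes did. Of the myeloid differences 34 lay above 0, with a median of 0.79, and of the receptor differences 18 lay below 0, with a median of -1.08. The missed threshold does not show that these genes behaved alike in both gates. The 2 genes with the opposite difference were Sytl2, a vesicle protein of cytotoxic cells, at 2.8 and 2.83 CPM with L1d and 11 and 7.75 CPM with L7d in DN2, and Sh2d3c, a signalling adaptor.

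**Figure D4:**
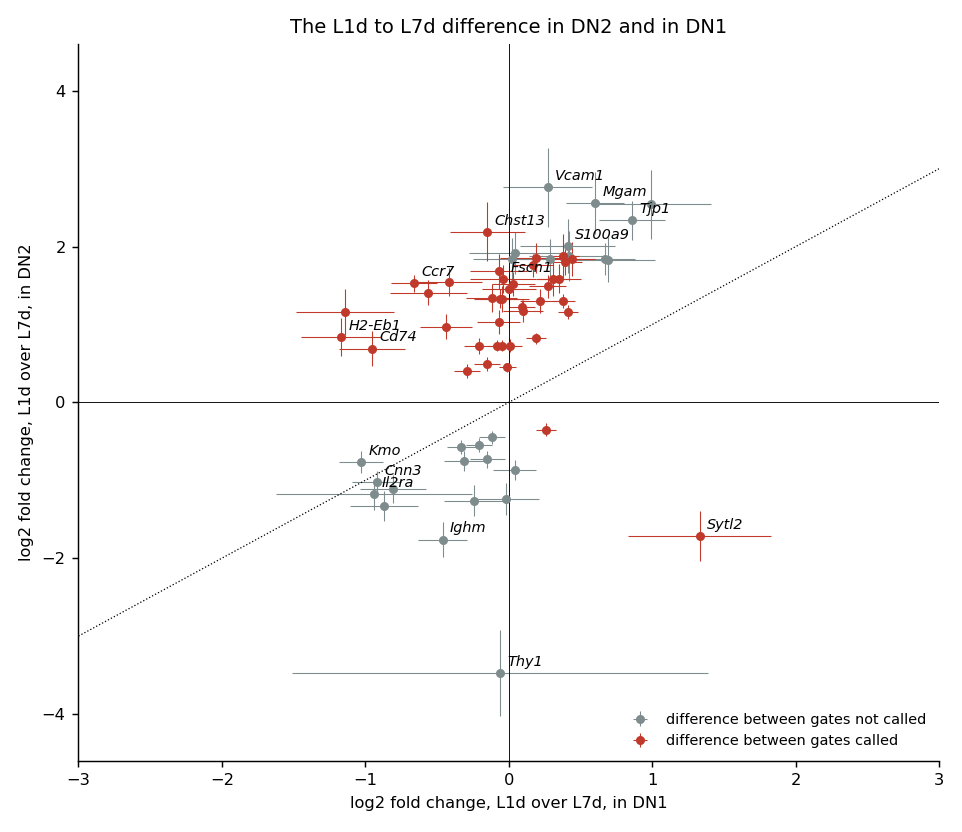
Points are 65 genes, those with the largest changes kept in every leave-one-out fit in DN2 and those whose change differed between gates, with the log2 fold change of L1d over L7d in DN1 on the x axis and in DN2 on the y axis; bars are standard errors, the dotted line marks equal changes, and red marks an adjusted p under 0.05 for the difference. Ccr7 and Fscn1 lie high in DN2 and near or below 0 in DN1 (-0.66 and -0.04), while Kmo lies below 0 in both.

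Beside P45 in DN2, whose comparisons share the libraries of L1d or L7d with the values above, L1d differed in 1209 genes that were higher and 421 that were lower (8.05% and 2.8%, and 10.9% together), and L7d in 36 and 8 (0.24% and 0.0533%, and 0.293% together). Thy1 was lower with L1d than with P45 by a log2 change of -4.05 (adjusted p = 0.000232) and with L7d by -0.58 (adjusted p = 0.86). Il2ra was lower with L1d by -1.58 (adjusted p = 0.000232) and with L7d by -0.4 (adjusted p = 0.704). Mpo was higher with L1d by 1.36 (adjusted p = 0.00114) and had -0.14 with L7d (adjusted p = 0.96). Ccr7 differed in both, by 2.2 with L1d (adjusted p = 7.3e-08) and 0.67 with L7d (adjusted p = 0.0387), and so did Fscn1, by 2.63 (adjusted p = 9.47e-07) and 1.05 (adjusted p = 0.0387). No gene was called between L7d and P45 without replicate 1 of P45, 2 without replicate 2 of P45 and 6 without replicate 2 of L7d, so the L7d calls of Ccr7 and Fscn1 were lost without replicate 1 of P45. For L1d against P45 the counts were 528 and 799 without replicates 1 and 2 of P45 and 569 without replicate 2 of L1d. A value that missed the threshold with L7d does not show that L7d and P45 were alike.

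The same pair of deletions had been expressed in a Tcf7 knockout of scid.adh, a mouse thymic lymphoma line, with 2 libraries per construct sorted 72 h after transduction. There 1041 genes were higher and 972 lower with L1 deleted than with L7 deleted (9.52% and 8.89% of 10939 genes, and 18.4% together). Of the 710 genes higher in DN2, 244 were measured in the line and 102 of them lay above 0, and of the 163 lower genes 108 were measured and 56 lay below 0, while 50.4% of all genes in the line lay above 0. Rasgrp1, Scd1 and Mast2 fell in both settings: Rasgrp1 had 32.6 and 34.8 CPM with L1 deleted and 50.6 and 49.3 CPM with L7 deleted in the line (log2 fold change -0.58, adjusted p = 0.000149). Lck went the other way in the line, with 410 and 479 CPM with L1 deleted and 334 and 349 CPM with L7 deleted (log2 fold change 0.38, adjusted p = 7.72e-06), and so did Tcf7 (0.4, adjusted p = 1.38e-08). Thy1 had 338 and 375 CPM with L1 deleted and 324 and 311 CPM with L7 deleted (log2 fold change 0.16, adjusted p = 0.0364). The line and the primary cells were fitted separately, so a difference between them was not tested.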

How the data were processed

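The deposited files are gene tables in which the authors gave, per sample, raw read counts per gene in 3 columns (strand ignored, forward, reverse). STAR 2.5.0a, HTSeq 0.6.1 and GRCm38 are named in the submitters' processing notes, and the library kit, SMARTer Stranded Total RNA-Seq, keeps strand, per the labels' protocols. The reverse-strand column was used; 4.98 to 5.99% of strand-assigned reads in these libraries were forward. Reads not assigned to a gene (58.5 to 62.8%) stayed out. Gene symbols and positions came from GENCODE M21. Of 59 libraries 58 were used; the file of the other ended after 14312 of 45706 genes.

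Libraries sharing a B number were summed over their T numbers, giving 16 primary replicates in 8 groups, and genes passing edgeR's default low-count filter (15010) were fitted together with edgeR 4.0.16 (R 4.3.3, TMM, quasi-likelihood test, Benjamini-Hochberg adjustment, 8 residual degrees of freedom, prior count 0.125 for fold changes). The cell line (14 libraries, 10939 genes) was fitted separately. The biological coefficient of variation was 9.2% between B replicates and 4.93% between T libraries. Floors of 3 counts cover counting error only. The fit was tested on simulated data.

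Genes named at length were the 15 largest rises and 15 largest falls that were called in the fit and in each fit leaving out 1 replicate, with a mean of at least 1 CPM in the higher group, together with called members of 28 gene lists, Tcf7 and the stage markers. The members and lists were chosen with earlier results of these data known, and 3 further lists (activated dendritic, mature macrophage, gamma and delta constant regions) were added after their values were seen. Some names outside the rule (Axin2, Hes1, Nrarp, Ms4a3, the CD3 genes) were chosen after their values were seen. Alternatives were DESeq2 1.42.0, other scaling, filters, strand, replicates and blocks. Promoter sequences are from RefSeq (GRCm38.p6).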

Additional observations from a re-analysis of the deposited data

Results flagged for a closer look

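The following genes had a change between L1d and L7d that differed between the DN2 and DN1 gates in edgeR's quasi-likelihood test of the interaction, with an adjusted p under 0.05. Values are the DN2 log2 fold change minus the DN1 log2 fold change. They were 2.2 for Ccr7, 1.97 for Ccl22, 1.97 for Cd83, 1.62 for Fscn1, 1.49 for Mreg, 1.46 for Cd86, 1.45 for Cd80, 1.41 for Relb, 1.4 for Tbc1d4, 1.07 for Marcks and 0.72 for Etv3, genes of activated dendritic cells. The list of such genes was chosen after its DN2 values were seen, and those values are part of these differences. The differences were 2.02 for H2-Eb1 and 1.65 for Cd74 of MHC class II. For genes with the largest kept rises in DN2 they were 2.34 for Chst13, 1.66 for Mmp25, 1.5 for Wfdc21 and 1.4 for Ccl6. The opposite difference was seen in Sytl2 (-3.06) and Sh2d3c (-0.61). In DN2 and DN1 the log2 fold changes were 0.84 and -1.17 for H2-Eb1, and -1.72 and 1.33 for Sytl2, whose levels in DN1 were 0.46 and 1.12 CPM with L1d and 0.383 and 0.3 CPM with L7d.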

How the results depend on the processing

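The count of 873 genes between L1d and L7d in DN2 was 1543 with no filter on low counts, 2357 with each T library as a replicate, 379 against a fold of 1.2, 153 with DN2 replicates alone and 36 with the 4 replicates compared alone (36 higher, 0 lower); it ranged from 186 to 1160 when a replicate was left out. In DN1 (9 genes) it was 5 with DESeq2 size factors, 53 with DESeq2, 219 without a filter, 717 over T libraries, 4 with T libraries 1 and 2, and 1 in every fit without a replicate. For the difference between gates (39) the counts were 22, 146, 618 and 899 under the first 4 of those settings, 7 to 326 without a replicate, and 269 and 138 within B replicates 1 and 2, a setting chosen after seeing the data. Against P45, L1d (1630) gave 3543 over T libraries, 641 with DN2 alone and 528 to 1975 without a replicate. Against P45, L7d (44) gave 120 with DESeq2, 447 without a filter, 888 over T libraries, 13 with T libraries 1 and 2, 3 with DN2 alone and 0 to 66 without a replicate. The line (2013) gave 1126 with DESeq2 and 1017 to 1981 without a replicate. The cause of these shifts was not tested.

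The replicate numbers are shared by the groups, but the labels do not say that they pair samples: the deviations of L1d and L7d replicates correlated at 0.24 in DN2 and 0.01 in DN1, those of L1d and P45 at 0.26 and of L7d and P45 at 0.18. With the replicate block the counts were 1148 in DN2, 24 in DN1, 95 for the difference between gates, 176 for L7d against P45 and 2052 in the line. With it 8 in place of 1 mast cell genes, 10 in place of 5 receptor genes and 12 in place of 2 stroma genes were called. Of 142 genes checked singly, the block changed no call, leaving out replicate 1 of L7d lost 84 and leaving out replicate 2 of L1d lost 64. Kit, not called in any setting named here, turned from 0.01 to -0.03 without a filter, 0 with the 4 replicates alone, -0.03 without L1d replicate 2, -0.06 without L7d replicate 2 (0.07 at the highest, without L7d replicate 1) and -0.09 within B replicate 1. The CD3 genes had few reads and unequal L7d replicates, and which of these limits their calls was not tested.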
